A study of Homo sapiens with 8 samples.

Results

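MYC, the RAS gene NRAS and a set of genes known from the biology of the let-7 miRNAs were followed in total RNA and in Ago2-bound RNA of the Hodgkin lymphoma cell line KM-H2. The group holds 8 genes: the transcription factor MYC, the small GTPase NRAS, the chromatin protein HMGA1, the let-7 blocker LIN28B, the RNA-binding proteins IGF2BP1, IGF2BP2 and IGF2BP3, and the DNA-binding protein ARID3B. All probes on the arrays whose transcript accession belongs to one of these genes were taken, irrespective of their signal, which gave 12 of the 41000 probes. Of these, 9 probes of 7 genes were measured well enough to be retained, and both LIN28B probes and 1 of the MYC probes were not. In EV cells, transcripts of ARID3B, IGF2BP3 and MYC were 7.17- to 9.68-fold more abundant in the Ago2-IP fraction than in total RNA, those of NRAS and HMGA1 were about equally abundant in both, and those of IGF2BP2 were less abundant in the IP.

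The cells carried either the empty pMSCV-PIG vector (EV) or that vector with a sponge for miR-155, a transcript with binding sites that capture this miRNA (miR-155-sp, or sponge cells below). GFP+ cells had been sorted in both cases. From each population, total RNA (T) and RNA pulled down with an antibody against Argonaute 2 (Ago2), the protein that carries miRNAs to their target mRNAs, were hybridized to two-color Agilent arrays. Each of the 4 groups is thus 1 RNA of 1 cell line, labelled once with Cy3 and once with Cy5, and each of the 4 arrays held the IP and the total RNA of one population in opposite dyes. The labellings are technical repeats of 1 RNA, so no test between groups could be made, and the spread given is that between the dye orientations. How much miR-155 the sponge captured was not measured on these arrays, and an IP with a control antibody was not analysed here. A lower signal cannot tell fewer cells with a transcript from less of it per cell.

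Signals are log2 values after quantile normalization over the 8 channels. The IP/T ratio is the IP signal divided by the total signal, from the mean of both labellings, and a probe was called IP-enriched at a ratio of at least 2. Of 43376 gene spots, 58.9% to 61.9% were well above background per Cy3 channel and 38.8% to 43.4% per Cy5 channel. In all, 17912 probes (43.7%) were retained, that is, they stood well above background in 4 or more of the 8 channels and the labellings of each RNA were no more than 2-fold apart. Probes for Hodgkin cell genes (TNFRSF8, TRAF1, IRF4, CCL17 and MIR155HG) were all retained, 7 of 7, whereas of the 4 B-cell marker probes the one for CD79A was. CD79B was not above background in any channel. Among markers of other cells, 2 of 4 T-cell probes (CD2 and CD3E) and 1 of 2 myeloid probes (CD14) were retained, each above background in 4 to 6 channels, and LYZ was in none. Their part in the values below was not tested.

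The miRNAs of the let-7 family are found in nearly all differentiated tissues, where they hold back growth genes. Their targets include MYC, the RAS genes, the HMGA genes, the IGF2BP genes and ARID3B, while LIN28 proteins bind let-7 precursors and prevent their maturation, and LIN28B is itself a let-7 target. The IGF2BP proteins bind mRNAs, MYC mRNA among them, and stabilize them. HMGA1 opens chromatin, ARID3B binds AT-rich DNA, and NRAS passes growth factor signals to the kinases RAF, MEK and ERK.

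A miRNA finds its targets mainly through its seed, bases 2 to 8 from the 5′ end. The seeds are shown because they tell the family that joins these genes from the miRNA that the sponge captures. Mature sequences from RefSeq (GRCh38.p14) are given 5′ to 3′ with the seed in capitals.
hsa-let-7a-5p (from MIRLET7A1, chr9:94175962-94175983, plus strand): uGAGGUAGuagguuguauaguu
hsa-let-7f-5p (from MIRLET7F1, chr9:94176353-94176374, plus strand): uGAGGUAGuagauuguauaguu
hsa-let-7d-5p (from MIRLET7D, chr9:94178841-94178862, plus strand): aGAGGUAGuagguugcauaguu
hsa-let-7b-5p (from MIRLET7B, chr22:46113691-46113712, plus strand): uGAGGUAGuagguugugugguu
hsa-miR-98-5p (from MIR98, chrX:53556299-53556320, minus strand): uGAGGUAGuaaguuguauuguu
hsa-miR-155-5p (from MIR155, chr21:25573983-25574006, plus strand): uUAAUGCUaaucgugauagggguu
The let-7 members shown, and 9 family members in all in that table, have the seed GAGGUAG, which pairs with CUACCUC in a transcript. The seed of miR-155 is UAAUGCU, which pairs with AGCAUUA. Mature miRNAs were not measured here, and no transcript sequence was searched for these sites, so the ratios do not tell which miRNA a transcript was bound with.

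The transcription factor MYC was represented by A_23_P215956 and A_24_P38363. In EV cells the log2 signal of A_23_P215956 was 11.21 (Cy3) and 10.95 (Cy5) in total RNA and 14.17 and 13.67 in the Ago2-IP. In sponge cells it was 11.18 and 10.96 in total RNA and 13.95 and 13.71 in the IP. The IP channels lay above the total channels in both populations with no overlap. The IP/T ratio was 7.17 in EV cells, with 5.51 on the array with the IP in Cy5 and 9.32 on the array with the IP in Cy3. In sponge cells it was 6.79 (5.79 and 7.96). Of all retained probes, 2.50% had a higher ratio in EV cells and 3.02% in sponge cells. The other MYC probe, A_24_P38363, had signals from 3.22 to 5.31 and was above background in 1 channel, the sponge IP labelled with Cy3, so no ratio is given for it and MYC rests on 1 probe.

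The strongest IP/T ratio of the group was that of ARID3B. Its probe A_23_P88580 had log2 signals of 11.85 (Cy3) and 12.05 (Cy5) in EV total RNA and 15.09 and 15.36 in the EV IP. The values in sponge cells were 11.90 and 11.98 in total RNA and 14.97 and 15.23 in the IP. All 4 IP channels were at least 14.97 and all 4 total channels at most 12.05. The ratio was 9.68 in EV cells (11.4 with the IP in Cy5 and 8.21 with the IP in Cy3) and 8.94 in sponge cells (10.1 and 7.93). Only 1.69% of retained probes were higher in EV cells, and 2.06% in sponge cells.

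The IGF2BP genes encode closely related proteins, and their IP/T ratios spanned almost the whole range of the group. IGF2BP3 was strongly enriched: its probe A_23_P19987 had log2 signals of 10.27 (Cy3) and 9.51 (Cy5) in EV total RNA and 13.18 and 12.43 in the EV IP. In sponge cells they were 9.94 and 9.45 in total RNA and 12.97 and 12.45 in the IP. Cy3 was above Cy5 in each of the 4 RNAs, by up to 1.70-fold, which made the dye orientations of this gene differ most among the IP-enriched members. The ratio in EV cells was 7.56, with 4.49 on the array with the IP in Cy5 and 12.7 on the array with the IP in Cy3. It was 8.10 in sponge cells (5.71 and 11.5). IP and total channels did not overlap, so the enrichment had the same direction on all 4 arrays while its size depended on the dye. With normexp background correction the labellings of IGF2BP3 were up to 2.72-fold apart, and the gene was then lost through the filter on agreement.

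IGF2BP1 lay in the middle. Its probe A_23_P83498 had log2 signals of 9.92 (Cy3) and 10.09 (Cy5) in EV total RNA and 11.05 and 11.03 in the EV IP, with 10.14 and 10.16 in total RNA and 11.02 and 11.19 in the IP of sponge cells. The ratio of 2.06 in EV cells (2.16 with the IP in Cy5 and 1.96 with the IP in Cy3) was just at the threshold, and that of 1.95 in sponge cells (2.08 and 1.82) just under it, so the call of this probe differed between populations while its array ranges overlapped. The dimmer IGF2BP1 probe A_23_P343954 had signals of 7.65 and 7.81 in EV total RNA and 8.24 and 8.04 in the EV IP. In sponge cells they were 7.94 and 7.79 in total RNA and 8.45 and 8.48 in the IP. Its ratio was 1.34 in EV cells (1.32 and 1.36) and 1.52 in sponge cells (1.45 and 1.59). Both probes of the gene thus had more signal in the IP on every array, and they disagreed on the size, as the array ranges of the probes did not overlap in either population.

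IGF2BP2 was on the other side of 1 with both of its probes. A_23_P250156 had log2 signals of 9.51 (Cy3) and 9.58 (Cy5) in EV total RNA and 9.09 and 8.22 in the EV IP, and of 9.56 and 9.34 in total RNA and 8.80 and 8.81 in the IP of sponge cells. Every IP channel was below every total channel. The ratio was 0.541 in EV cells (0.410 with the IP in Cy5 and 0.715 with the IP in Cy3) and 0.640 in sponge cells (0.594 and 0.690), and 82.7% and 70.1% of retained probes were higher. A_23_P95672 was above background in Cy3 channels alone, with signals from 5.26 to 6.54 over the 8 channels. Its ratios of 0.745 in EV cells and 0.669 in sponge cells thus rest partly on signals near background. They lay nearer the middle of the array, as 59.7% and 67.0% of retained probes were higher. No IGF2BP2 mean reached a ratio of 0.5 or less, a level at which 12.9% of retained probes were found in EV cells and 14.1% in sponge cells.

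NRAS in both populations, and HMGA1 in EV cells, showed no difference between fractions beyond the dye orientations. NRAS A_23_P63190 had log2 signals of 10.10 (Cy3) and 9.89 (Cy5) in EV total RNA and 10.30 and 9.98 in the EV IP, and of 10.13 and 9.70 in total RNA and 10.19 and 10.02 in the IP of sponge cells. Its ratio was 1.11 in EV cells (0.920 with the IP in Cy5 and 1.34 with the IP in Cy3) and 1.14 in sponge cells (0.925 and 1.40), so the orientations lay on opposite sides of 1 in both populations. HMGA1 A_24_P222043 had signals of 10.38 and 10.50 in EV total RNA and 10.25 and 10.70 in the EV IP, and of 10.40 and 10.27 in total RNA and 10.53 and 10.53 in the IP of sponge cells. Its ratio was 1.03 in EV cells (1.25 and 0.842) and 1.14 in sponge cells (1.09 and 1.20), where both IP channels lay slightly above both total channels. Transcripts of both genes were thus well measured, with ratios far below 2. Higher ratios than that of NRAS were found for 33.8% of retained probes in EV cells and 32.7% in sponge cells. For HMGA1 these shares were 37.8% and 32.4%.

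LIN28B was not detected. The signals of its probes A_24_P769529 and A_32_P224566 lay between 3.10 and 4.80 on the log2 scale, and neither was well above background in any of the 8 channels. The lowest signal called well above background lay between 4.02 and 6.56 depending on the channel, so a LIN28B transcript at a lower level could not be seen in either fraction, and no ratio is given.

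**Figure D1:**
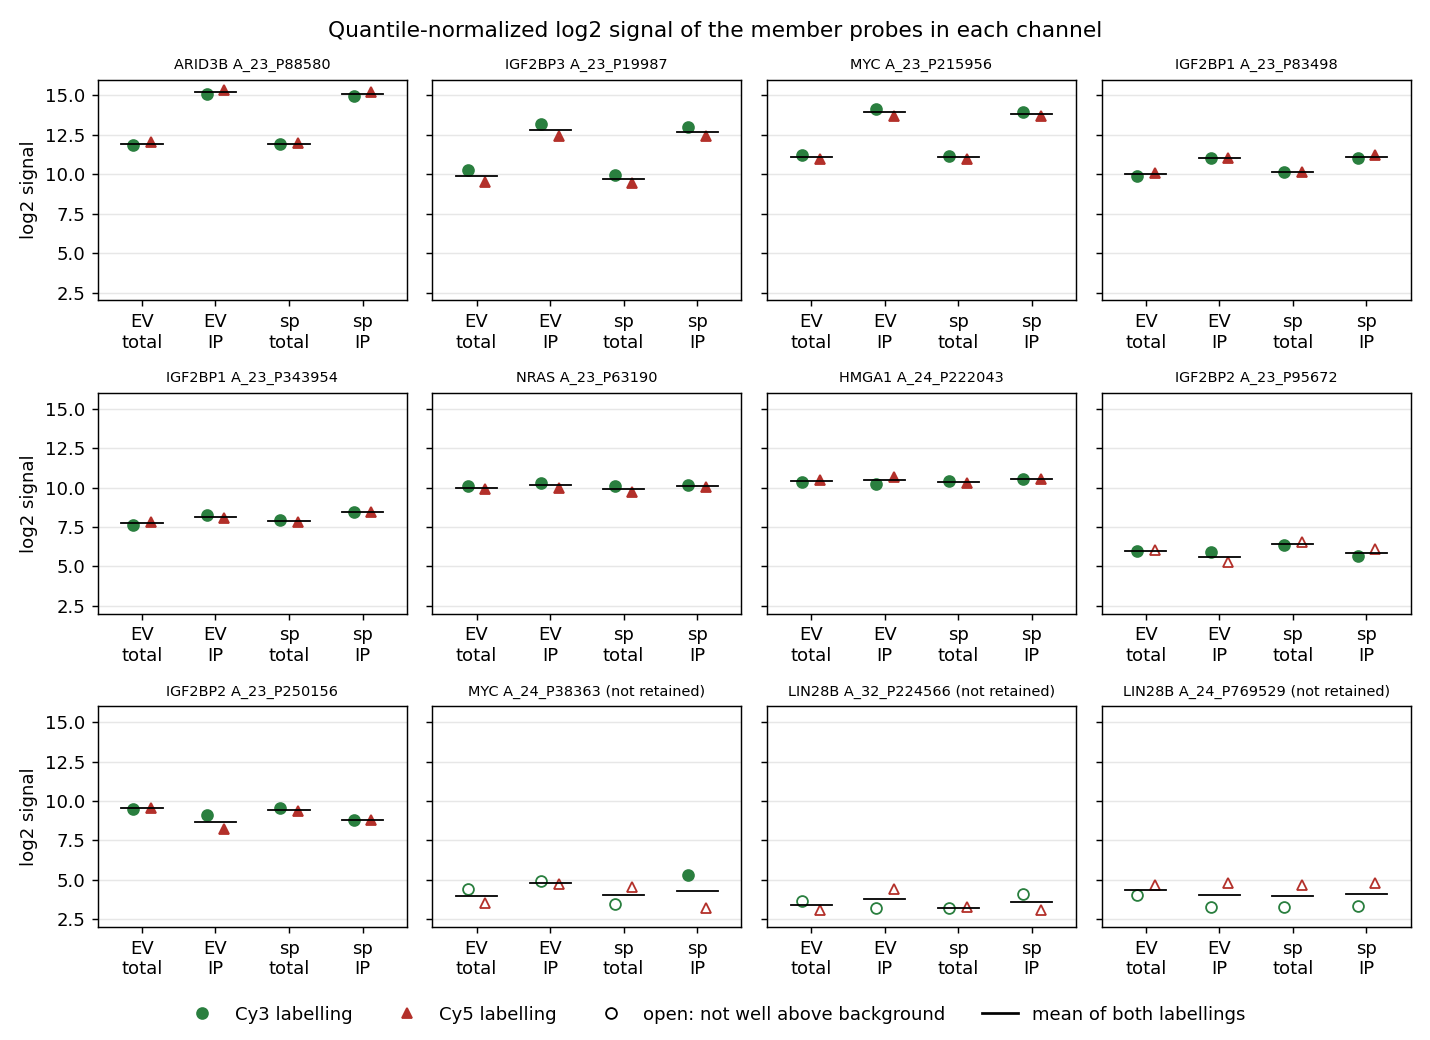
Quantile-normalized log2 signal (vertical axis) of the 12 member probes in EV and miR-155-sp (sp) total and Ago2-IP RNA; circles are Cy3 and triangles Cy5 labellings, open symbols were not well above background, and bars are the mean of both labellings. The IP channels of ARID3B, IGF2BP3 and MYC A_23_P215956 lie clear above the total channels, those of IGF2BP2 A_23_P250156 lie below them, and the probes that were not retained are at or near background.

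In the order of IP/T ratios the array ranges of ARID3B, IGF2BP3 and MYC overlapped in EV cells, so these genes could not be ranked among themselves. A gap followed to IGF2BP1 A_23_P83498 and another to IGF2BP1 A_23_P343954. From there down, through NRAS, HMGA1 and both IGF2BP2 probes, each range overlapped that of its neighbour. In sponge cells the top group overlapped likewise, and the gaps below MYC and between the IGF2BP1 probes were found again. There, IGF2BP1 A_23_P343954 was also clear of NRAS, and HMGA1 of IGF2BP2 A_23_P95672.

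Of the 9 retained member probes, 4 (44.4%) were IP-enriched in EV cells, each of a different gene, against 14.8% of all retained probes. In sponge cells they were 3 of 9 (33.3%) against 15.6%, since IGF2BP1 A_23_P83498 passed the threshold in EV cells alone. Restricted to probes above background in all 8 channels, the shares of all probes were 12.7% and 13.0%. The member probes had a median log2 IP/T of 0.42 in EV and 0.60 in sponge cells, with −0.24 and −0.26 over all retained probes. With 9 probes of 7 genes these shares are a description of the group.

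**Figure D2:**
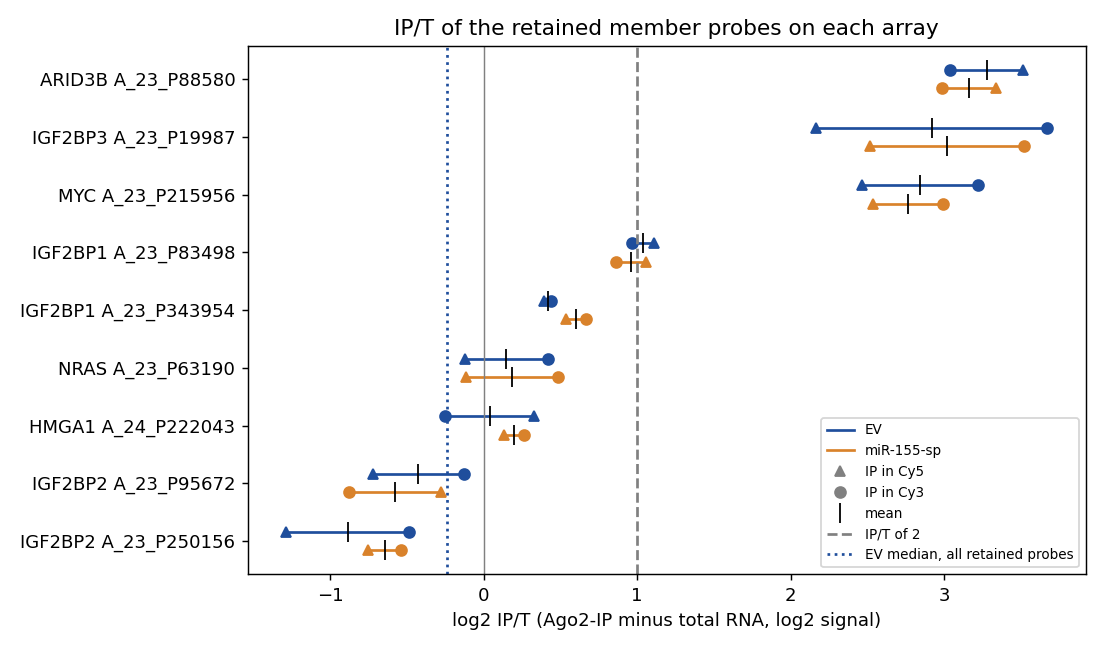
Log2 IP/T ratio (horizontal axis) of the 9 retained member probes on each array, in EV (blue) and sponge cells (orange), with triangles for the IP in Cy5, circles for the IP in Cy3 and a tick at the mean; the dashed line is a ratio of 2 and the dotted line the EV median of all retained probes. ARID3B, IGF2BP3 and MYC stand apart from the other probes in both populations, and the lines of EV and sponge cells overlap for most probes.

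With the sponge the ratios of the member genes moved little. None of the 9 probes changed its IP/T ratio by 2-fold, nor its signal in the IP or in total RNA, and over all retained probes such changes were found for 1.45%, 0.234% and 0.363%, respectively. The largest change of a ratio was 0.24 on the log2 scale. The median size of the change was 0.11 for the member probes and 0.17 for all retained probes. It was 0.15 for all retained probes above background in all 8 channels, as 8 of the 9 member probes were. Ratios were higher in sponge cells for 5 probes and lower for 4, with a median log2 change of 0.038.

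A change with the same sign in both dye orientations was seen for 4 probes. The share of such probes among all retained probes was not counted. The ratio of ARID3B was lower in sponge cells by a log2 change of −0.11 (−0.18 with the IP in Cy5 and −0.05 with the IP in Cy3), with −0.13 in the IP and −0.01 in total RNA. Its sign turned to 0.05 when channels were scaled to one median only, and to 0.16 or 0.14 with normexp background correction. IGF2BP1 disagreed between its probes, since A_23_P83498 was lower by −0.08 (−0.05 and −0.10) and A_23_P343954 higher by 0.19 (0.14 and 0.23). The former was 0.01 when scaled to one median and 0.09 by the Cy5 labellings alone, and the latter −0.08 by the Cy3 labellings alone. For NRAS the change was 0.04 (0.01 and 0.07), but −0.07 or −0.06 with normexp background correction and −0.15 by the Cy3 labellings alone. No sign of these changes held under every setting.

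The other changes differed in sign between the dye orientations. For MYC the log2 change of the ratio was −0.08 (0.07 with the IP in Cy5 and −0.23 with the IP in Cy3), with −0.09 in the IP and −0.01 in total RNA. For IGF2BP3 it was 0.10 (0.35 and −0.15), with −0.10 in the IP and −0.19 in total RNA. HMGA1 had a change of 0.16 (−0.20 and 0.51) and IGF2BP2 A_23_P250156 one of 0.24 (0.53 and −0.05). The dim IGF2BP2 probe A_23_P95672 gave −0.15 (0.44 and −0.75), and its total RNA was higher in sponge cells by 0.45 with both dyes on the same side (0.39 in Cy3 and 0.51 in Cy5), whereas A_23_P250156 of the same gene gave −0.09 in total RNA. The largest change with the same sign in both orientations was the 0.19 of IGF2BP1 A_23_P343954. It was smaller than the 0.24 of IGF2BP2 A_23_P250156, whose orientations disagreed.

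**Figure D3:**
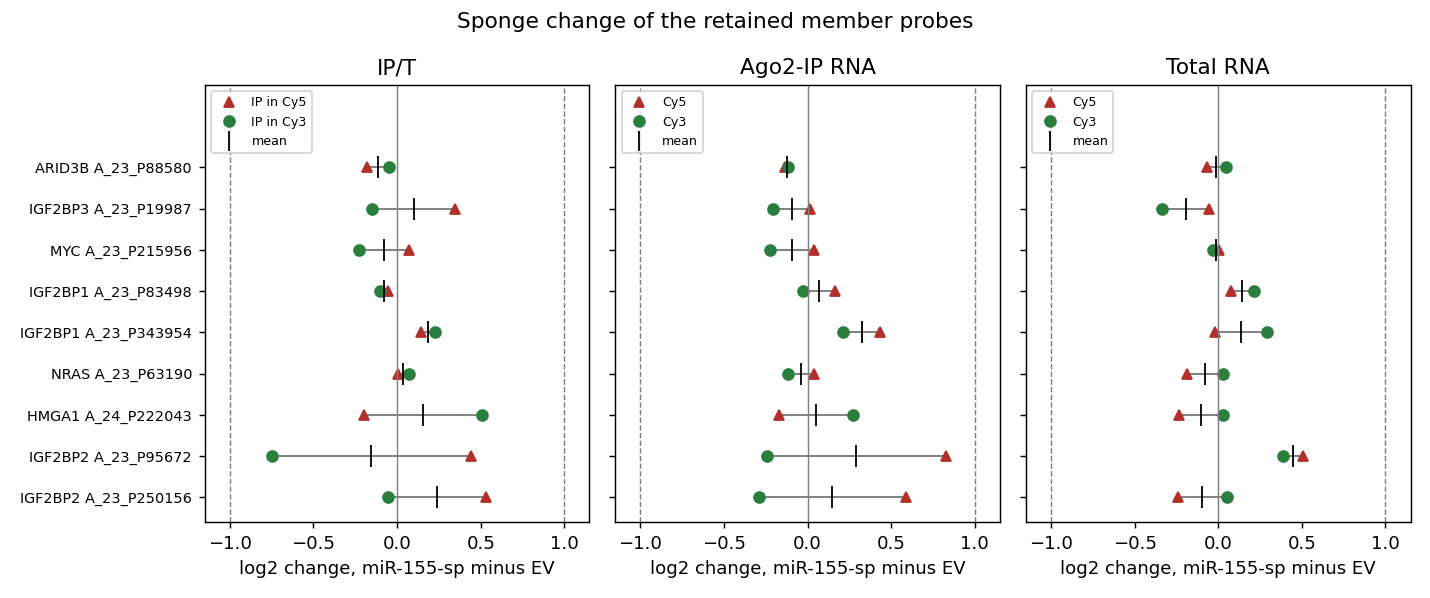
Log2 change between miR-155-sp and EV cells (horizontal axes, miR-155-sp minus EV) of IP/T, of the Ago2-IP signal and of the total RNA signal for the 9 retained member probes; triangles and circles are the dye orientations or labellings, ticks the means, and dashed lines a 2-fold change. All means lie within 2-fold, and for 5 of the 9 probes the orientations of the IP/T change fall on both sides of 0.

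Close relatives of the member genes were looked up as well. HRAS, a RAS gene close to NRAS in protein sequence, was depleted by A_23_P98183, at 0.399 in EV cells (0.463 and 0.343) and 0.419 in sponge cells (0.456 and 0.384). NRAS, at 1.11 in EV cells, lay above it, and the array ranges of NRAS and HRAS did not overlap in either population.

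The MYC paralog MYCN was found at the other end from MYC. Its probe A_23_P303390, above background in all 8 channels, had a ratio of 0.194 in EV cells (0.232 and 0.162) and 0.320 in sponge cells (0.444 and 0.230), and its other probe and both probes of MYCL were not retained. ARID3A, the paralog of ARID3B, was IP-enriched too, at 3.90 in EV cells (3.24 and 4.69) and 4.09 in sponge cells. HMGA2 and LIN28A, each a classical let-7 target, were not above background in any channel. Cross-hybridization between paralogs was not tested.

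Related genes were taken from lists drawn up by their known roles, with earlier results of these data known. The shares given for these lists are therefore a description and no independent support. Of 17 other let-7 targets, 12 had retained probes, and 11 of their 20 probes (55.0%) were IP-enriched in EV cells and 10 in sponge cells, beside 14.8% and 15.6% of all retained probes. Among them, CDK6, a kinase of the G1 phase of the cell cycle, had ratios of 5.21 and 4.66 in EV cells. The 4.66 came from a probe above background in 6 channels. CDC25A, a phosphatase that activates cell cycle kinases, had 4.86 and 4.33. CCND2, the cyclin D2 partner of CDK6, had 2.33, 2.29 and 1.68, and IGF1R, the receptor for insulin-like growth factors, had 2.44 on a probe above background in 4 channels. DICER1, also on this list, is described with the let-7 processing genes. Depleted to 0.5 or less in EV cells were 3 of the 20 probes, of MYCN, HRAS and E2F2, beside 12.9% of all retained probes. The median log2 ratio of the list was 1.21 in EV and 1.06 in sponge cells, and of its 15 probes above background in all channels 7 were IP-enriched in EV cells, beside 12.7% of all such probes.

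The let-7 processing genes had the highest single values. DICER1, the enzyme that cuts miRNA precursors and a let-7 target as well, had ratios of 8.08 by A_24_P22163 (9.00 and 7.25) and 26.0 by A_23_P37111 (32.2 and 20.9) in EV cells. In sponge cells they were 12.8 (17.5 and 9.28) and 50.5 (37.9 and 67.5), with log2 changes of 0.66 and 0.96. The log2 signal in total RNA was lower in sponge cells, by changes of −0.45 and −1.20. In the IP the changes were 0.20 and −0.24. A_23_P37111 was above background in 7 of the 8 channels, with a lowest log2 signal of 5.79. The ratios of this probe and their change thus rest partly on a signal near background. TUT4, which adds uridines to let-7 precursors bound by LIN28, had 2.93 in EV cells and 4.63 in sponge cells on a probe above background in 7 channels. KHSRP, a protein that helps let-7 mature, had 0.783 and 0.635, and 3 of the 6 retained probes of this list were IP-enriched in each population, beside the 14.8% and 15.6% of all retained probes.

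The MYC network list, with the MYC, MAX and MLX families and the MYC-binding proteins MYCBP and MYCBP2, held 24 retained probes of 13 genes, of which 5 probes (20.8%) were IP-enriched in EV cells and 5 in sponge cells, near the 14.8% and 15.6% of all retained probes. The MYC antagonists MNT and MXD1 led it, with 4.57 for MNT (4.77 and 4.39) and 4.24 and 2.55 for the probes of MXD1. MAX itself, the obligate partner of MYC, had 2.09 on one probe and 1.36 and 0.884 on the others, and MLXIP ranged from 0.526 to 3.45 over 4 probes. MXD4, also an antagonist, was between 0.522 and 0.683 on its 3 probes. The median log2 ratio of the list was 0.17 in EV cells.

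The RAS pathway list held 17 retained probes of 12 genes, of which 4 (23.5%) were IP-enriched in EV cells and 4 in sponge cells. Over all retained probes these shares were 14.8% and 15.6%. The probes of HRAS and of MAP2K2, the kinase MEK2 of the cascade below RAS, were at 0.5 or less in EV cells. This level was reached by 12.9% of all retained probes. The ratio of MAP2K2 was 0.439 (0.373 and 0.516). MAP2K1, the kinase MEK1, had 0.856, and MAPK3, the kinase ERK1, had 0.827. The median log2 ratio was −0.13 in EV cells and −0.31 in sponge cells. Over all 4 lists, which share some genes, 61 of 90 probes were retained. Of these, 19 (31.1%) were IP-enriched in EV cells and 18 (29.5%) in sponge cells, beside 14.8% and 15.6%. None changed its ratio by 2-fold with the sponge, a change found for only 1.45% of all retained probes. TRIM71, ARID3C and SOS2 had no probe matched to them.

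**Figure D4:**
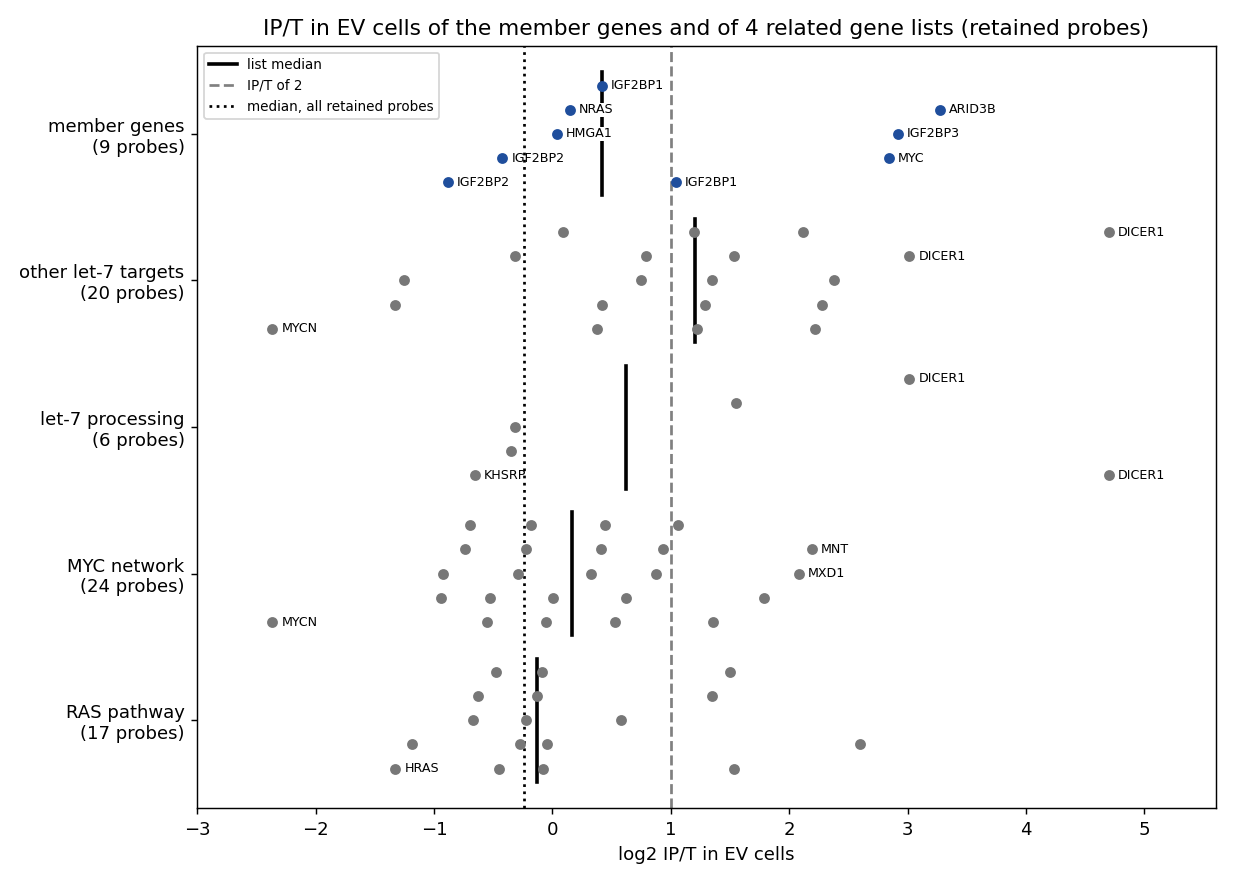
Log2 IP/T ratio in EV cells (horizontal axis) of each retained probe of the member genes (blue) and of 4 related gene lists (grey), with bars at the list medians, a dashed line at a ratio of 2 and a dotted line at the median of all retained probes; vertical offsets within a list only separate the points. The list medians lie from −0.13 for the RAS pathway to 1.21 for other let-7 targets, with DICER1 highest and MYCN lowest.

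The named genes whose ratios were most like those of ARID3B over the 4 arrays were PSKH1, ZFYVE21, TSC22D2, DUSP2 and DPH3, at Euclidean distances of 0.18 to 0.27 in log2 IP/T and with ratios from 8.66 to 10.9 in EV cells. Those most like IGF2BP2 A_23_P250156 were GSPT1, TUBGCP2, IFT57 and PCGF1, at distances of 0.094 to 0.23 and with ratios from 0.533 to 0.585. This likeness covers 4 arrays of 2 cell populations and was searched among probes above background in all channels.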

How the data were processed

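Total and Ago2-IP RNA of EV and miR-155-sp KM-H2 cells had been hybridized to two-color Agilent 44k arrays with dyes swapped. Per the file headers, spot intensity values were made with Agilent Feature Extraction 10.7.3.1 (10.5.1.1 in the submitters' processing notes), which subtracted background and normalized the dyes. The authors also deposited log2 values of 16065 probes after quantile normalization and filtering. They differed from the log2 values computed here by a median of 0.00056 over 16057 shared probes, hold 8 of the 12 member probes, and have channel medians from 9.71 to 9.72. The direction of each ratio follows from the dye labels.

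Control spots and the 74 to 100 outlier spots of each channel were removed, and saturation was flagged for no gene spot. Log2 values were averaged over the spots of a probe, 40981 probes were quantile-normalized over the 8 channels, and probes above background in at least 4 channels and within 2-fold between labellings were kept. The normalization sets aside any difference in amount between fractions, and signals near background distort ratios. The number of arrays limits the precision.

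Probes were named by accession through a RefSeq gene table of GRCh38.p14, which matched 23958 of 41000. As the array design used hg18, probe coordinates are not given. Probes of one gene were kept apart. Members, lists and alternatives were chosen with earlier results of these data known. Named were all member probes, the 2 genes at each end of each list in EV IP/T by probes above background in all channels, and the 5 genes nearest to the highest and lowest member. Other genes were named after their values were seen. Some genes that the rule names are not reported here. Ratios were computed with pandas 2.3.3 and numpy 2.4.6 (Python 3.11.15), and normexp (offset 50) with limma 3.58.1 in R 4.3.3. On simulated data, 200 of 200 probes set 4-fold higher in the IP were recovered among 40981 in EV cells, with 0 others. Their set rise lay well above the threshold ratio of 2, so this recovery only checks the calculation. It is no measure of sensitivity for ratios near 2 or for probes with a wide dye spread. For IGF2BP3 in EV cells the SD of log2 IP/T between dye orientations was 1.06. Counts and ranges stand in place of tests, as each group is 1 RNA.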

Additional observations from a re-analysis of the deposited data

Results flagged for a closer look

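One probe of a related gene stood on opposite sides of equal abundance in the 2 populations. RRM2, a subunit of ribonucleotide reductase listed as a let-7 target, had by A_24_P225616 log2 IP/T ratios of 0.02 and 0.16 on the EV arrays and of −0.29 and −1.02 on the miR-155-sp arrays, a log2 change of −0.75. The probe was well above background in all 8 channels. With 1 RNA per group the difference was not tested. The probe was found by a search over all retained probes of the members and lists. How often such a split occurs among all retained probes was not counted. The other RRM2 probe, A_24_P234196, had ratios of 0.634 and 1.02 in EV cells against 0.631 and 0.713 with the sponge, so it did not show the same split.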

How the results depend on the processing

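The enrichment of ARID3B and MYC was above 2 in every setting run, with log2 IP/T in EV cells from 3.01 to 3.51 and from 2.46 to 3.22. That of IGF2BP3 was from 2.17 to 3.67 in the settings that kept it. With normexp background correction (followed by loess and Aquantile, or by quantile normalization) the number of IP-enriched member probes in EV cells was 2 of 8 in place of 4 of 9. The share over all retained probes was lower as well, at 5.99% and 6.64% in place of 14.8%. IGF2BP3 was then dropped, since its labellings were 2.72- and 2.45-fold apart against 1.70-fold, and IGF2BP1 A_23_P83498 was under the threshold at 0.98 and 0.84. Without the agreement filter, chosen after seeing the data, normexp gave 3 probes, beside 6.91% and 6.74% of all probes. The median log2 change with the sponge was −0.052 with the IP in Cy3 alone, against 0.038, and from −0.16 to 0.087 when 1 labelling of all RNAs was left out. IP-enriched member probes then numbered 3 to 4 in EV cells and 3 to 4 in miR-155-sp cells. A common median shifted the median change of all probes from −0.0025 to 0.055. Of the values of single probes under all settings, 328 moved by less than the spread between dye orientations and 56 by more. Those 56 were under a common median, normexp or 1 labelling alone. Part of the 328 was fixed in advance. Settings that change only the filters leave the value of a kept probe as it is, and a single dye orientation always lies within this spread. The 328 are therefore no measure of robustness. No paired analysis was possible because each group is 1 RNA and labellings with the same number share a dye. LIN28B lies below the detection limit of the arrays, and IGF2BP2 A_23_P95672 close to it.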
